A study of Mus musculus with 6 samples.

Results

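Described here are 4 circular RNAs of the mouse ovary that were listed far lower after hypobaric hypoxia than at normal pressure: novel_circ_041272, novel_circ_046486, novel_circ_040866 and novel_circ_000012. They are 4 of 57233 listed circRNAs, and they were picked by their abundance in the 2 groups. They are the 4 with the most negative log2 fold changes among the 38 circRNAs that the comparison of the groups called lower. Their levels in the 2 groups are therefore given as a description and carry no test. They were grouped under the label "nearly lost in hypobaric hypoxia", which the values bear out in part. In hypoxia, novel_circ_041272 was above 0 in 3 of 3 libraries, novel_circ_040866 and novel_circ_000012 in 2 and novel_circ_046486 in 1. The lowest normal pressure value of novel_circ_000012 was nearly equal to its highest hypoxia value.

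A circRNA is a closed RNA ring made when the splicing machinery joins an exon's end back to its own start or to that of an earlier exon. It has no free ends, which makes it resistant to the exonuclease RNase R, and rings are often longer-lived than the linear RNA of the same gene. Some circRNAs bind microRNAs or proteins, and for most no role is known. The ovary is a tissue of continuous follicle growth, ovulation and regression, and its cell makeup changes over the reproductive cycle.

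The groups were female C57BL/6J mice (C57BL/6 in the design text) of 6 to 8 weeks by the descriptions and 8 weeks by the design text. Normal pressure animals lived for 15 days in Lanzhou, China (1500 m in the titles, 1588 m in the design text), at 83.56 kPa with 17.8 kPa oxygen. Hypobaric hypoxia animals lived for 15 days in a chamber at 43.12 kPa with 8.1 kPa oxygen, and left the hypoxia for 0.5 h every 2 days for feeding. The chamber setting stands for 6500 m in the titles and the design text and 5000 m in the descriptions. All animals were hormonally synchronized with levonorgestrel and ethinylestradiol, a progestin and an estrogen, with doses (0.1 and 0.02 mg/kg) stated for the hypoxia group only. Each group had 15 mice and 3 libraries, and it is not stated if 1 mouse or several went into a library, so p-values measure only the spread between these libraries, which may be technical. All 6 libraries are labelled as 1 batch. The deposited table pairs no ID with a gene, a position or a sequence, so no host gene, sequence or ovarian marker is given for any circRNA.

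Abundance is in RPM, reads of a circRNA scaled so that every library has the same total, so each value is a share of the circRNA fraction. The RPM values are whole multiples of a step in each library, of which the smallest value is 2 steps; with the step taken as 1 read, this gives the reads behind them. These reads numbered 151364 to 369055 per normal pressure library and 487143 to 526621 per hypoxia library. The shallowest was normal pressure replicate 2, where 1 read was worth 6.61 RPM, against 1.90 to 2.74 RPM in the other 5 libraries. No library lists a circRNA at 1 read, so a value of 0 means fewer than 2 reads, or less than 3.80 to 4.11 RPM in the hypoxia libraries. The counting intervals below for single libraries are exact 95% Poisson intervals on the reads. Those for ratios from summed reads are exact 95% binomial intervals on the split of the reads between the groups. Both kinds of interval cover counting error only, and without molecular identifiers several reads can come from 1 molecule. They take a listed 0 as 0 reads, though it can stand for 1 read. Where hypoxia libraries are listed at 0, the intervals and the ratios from summed reads can therefore lean towards a larger fall. In bulk ovary, fewer cells of a type and less RNA per cell cannot be told apart.

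The most abundant of the 4 by mean, novel_circ_041272, was listed at 200.0, 323.7 and 493.2 RPM in normal pressure replicates 1, 2 and 3. The hypoxia values were 24.0, 13.3 and 24.6 RPM in the same order. Each hypoxia library was far below each normal pressure library, and the lowest normal pressure value was 8.12 times the highest hypoxia value. The means were 339 ± 147 and 20.6 ± 6.36 RPM (SD, n = 3), a ratio of 16.4, so that 6.09% of the normal pressure level was left. It rested on 304 reads in normal pressure and 31 in hypoxia. The counting intervals of the single libraries did not meet, the nearest bounds being 157 RPM in normal pressure replicate 1 and 43.0 RPM in hypoxia replicate 3. At the mean RPM of normal pressure, the hypoxia libraries would have held 165 to 178 reads of it, and they held 7 to 12. By abundance it ranked between 281 and 835 in the normal pressure libraries and between 5616 and 9104 in the hypoxia libraries. It was the one of the 4 that was above 0 in all 6 libraries, and it did not disappear in any of them. Leaving out any single library kept the ratio between 12.7 and 19.8.

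The scarcest by mean in both groups, novel_circ_046486, was listed at 57.5, 39.6 and 73.2 RPM in normal pressure replicates 1, 2 and 3. In hypoxia it was at 7.99 RPM in replicate 1 and at 0 in replicates 2 and 3. The groups did not overlap, and the hypoxia mean of 2.66 RPM rested on 4 reads in 1 library, against 54 reads in normal pressure. At the normal pressure mean of 56.8 ± 16.8 RPM (SD, n = 3), the hypoxia libraries would have held 27.7 to 29.9 reads each. The ratio of the means was 21.3. From the summed reads, with the listed zeros counted as 0 reads, it was 23.1 with a 95% counting interval of 8.52 to 87.8. With both zeros taken as 1 read the ratio of the means was 14.3, and without hypoxia replicate 2 or 3 it was 14.2. Without hypoxia replicate 1 the circRNA is listed at 0 in hypoxia and no ratio is given. The interval of normal pressure replicate 2, 14.5 to 86.3 RPM from 6 reads, met that of hypoxia replicate 1, 2.18 to 20.4 RPM. The other normal pressure libraries did not meet it, with lower bounds of 35.6 and 48.2 RPM.

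Levels of novel_circ_040866 were 87.7, 99.1 and 35.2 RPM in normal pressure replicates 1, 2 and 3, and 22.0, 3.80 and 0 RPM in the hypoxia replicates. The groups did not overlap, but the lowest normal pressure value was only 1.60 times the highest hypoxia value. The intervals of those libraries, 18.8 to 60.2 and 11.0 to 39.3 RPM, met. The means were 74.0 ± 34.1 and 8.59 ± 11.7 RPM (SD, n = 3), a ratio of 8.62, the smallest of the 4. The summed reads, 60 and 13, gave 7.89 with an interval of 4.29 to 15.7. Hypoxia replicate 1 held 11 of those 13 reads, and without it the ratio of the means was 38.9, resting on 2 reads. Without hypoxia replicate 3, where the circRNA is listed at 0, the ratio of the means was 5.74.

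The values of novel_circ_000012 were 16.4, 336.9 and 40.6 RPM in normal pressure replicates 1, 2 and 3, and 5.99, 0 and 16.4 RPM in the hypoxia replicates. Normal pressure replicate 2, the shallowest library, stood apart from the other two and held 85.5% of the RPM summed over the normal pressure libraries. The lowest normal pressure library and the highest hypoxia library differed by 0.02 RPM, 6 reads against 8 reads. The SD in normal pressure, 178 RPM (n = 3), was larger than the mean of 131 RPM. The ratio of the means was 17.6, and without normal pressure replicate 2 it was 3.82. Leaving out hypoxia replicate 2 or 3 gave ratios of means of 11.7 and 43.9. Leaving out 1 library at a time thus gave ratios of means from 3.82 to 43.9. From the summed reads, 72 against 11, the ratio was 11.2.

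**Figure D1:**
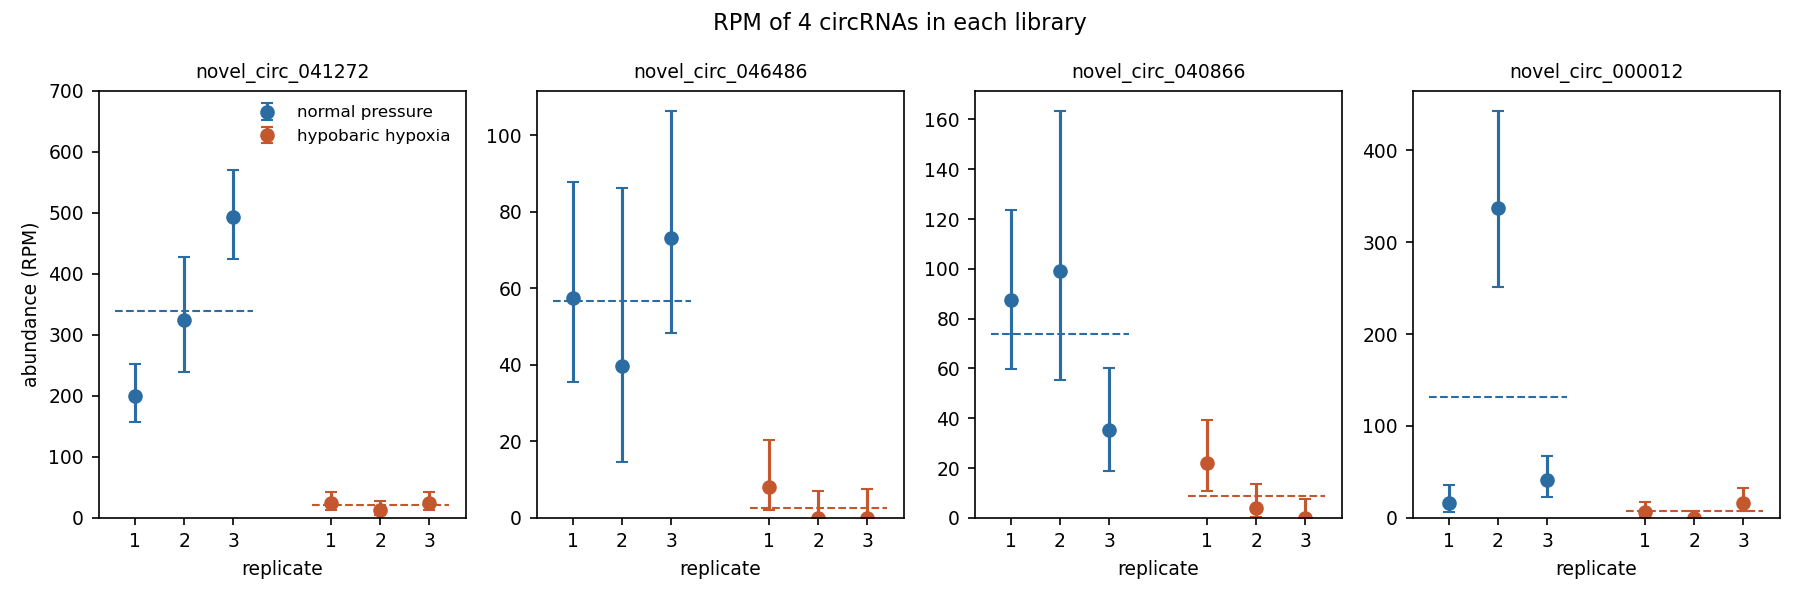
RPM of each circRNA in the 3 normal pressure and 3 hypobaric hypoxia libraries, with exact 95% Poisson intervals on the reads (bars) and group means (dashed), on a separate linear axis per panel. Hypoxia points of novel_circ_041272 sit between 13.3 and 24.6 RPM, below normal pressure points of 200.0 to 493.2 RPM, while the mean of novel_circ_000012 in normal pressure is carried by replicate 2.

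The 4 did not share one order of the normal pressure libraries. Replicate 2 was the highest for novel_circ_040866 and novel_circ_000012, and replicate 3 was the highest for novel_circ_041272 and novel_circ_046486. Among the hypoxia libraries, replicate 2 was the lowest or tied for the lowest for all 4 except novel_circ_040866, which was listed at 0 in replicate 3. Hypoxia replicate 1 listed none of the 4 at 0. Summed over the 4, they made up 0.0362% to 0.0799% of a normal pressure library and 0.00171% to 0.00599% of a hypoxia library. In normal pressure, novel_circ_041272 gave 40.5% to 76.8% of that sum.

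For 3 of the 4, relative spread between normal pressure libraries was above the upper quartile of all circRNAs with a mean of at least 50 RPM. The coefficient of variation (CV, SD over mean) was 43.4% for novel_circ_041272, 29.5% for novel_circ_046486, 46.0% for novel_circ_040866 and 136% for novel_circ_000012. Over the 3226 circRNAs with a mean of at least 50 RPM in normal pressure, the median CV was 24.0%, with an upper quartile of 36.7%. A CV at least that of novel_circ_046486 was found in 37.8% of them. The corresponding shares were 16.3% for novel_circ_041272 and 13.8% for novel_circ_040866. That set also holds the 1673 circRNAs at 100 RPM or more, whose median CV was lower, at 18.3%. For novel_circ_046486 and novel_circ_040866 it is therefore not a set of like abundance, and these shares can make their spread look more unusual than it is. At 100 RPM or more, where the upper quartile was 27.8%, a CV at least that of novel_circ_041272 was found in 6.40% of circRNAs. In that set, 5 of 1673 circRNAs, itself included, had a CV as large as novel_circ_000012. The other 4 were above 0 in 1 normal pressure library alone. Of the 9 circRNAs in the set with a CV over 100%, 8 were highest in normal pressure replicate 2. The part of that library in the level of novel_circ_000012 was not tested.

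On log2(RPM + 4.765), the scale on which the groups were compared across all circRNAs, the differences (hypobaric hypoxia minus normal pressure) were -3.70 for novel_circ_041272, -3.18 for novel_circ_046486, -2.82 for novel_circ_040866 and -2.75 for novel_circ_000012. The added constant shrinks the differences of scarce circRNAs, so that novel_circ_046486 comes after novel_circ_041272 here and before it by the ratio of means. Among 15737 circRNAs tested, 38 were called lower (limma, Benjamini-Hochberg adjusted p under 0.05), which is 0.241%, and the 4 were chosen from them. All 4 had groups without overlap, as did 4.85% of the circRNAs tested in the direction of lower in hypoxia and 9.12% in the other direction. The next called circRNA by log2 fold change, just outside the choice, was at -2.19, with 68.5, 66.1 and 100.3 RPM in normal pressure and 12.0, 13.3 and 14.4 RPM in hypoxia. Its ratio of means was 5.92. A further 5 circRNAs had log2 fold changes between -3.00 and -2.77, within the span of the 4, and were not called. Their normal pressure means were 28.4 to 50.5 RPM, below those of the 4, and 4 of the 5 were listed at 0 in each hypoxia library. The remaining one had means of 50.5 RPM in normal pressure and 2.53 RPM in hypoxia, so large falls were not particular to the 4.

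Large falls were counted over all circRNAs only to place the 4, which were chosen for their falls. Of 1673 circRNAs with a mean of at least 100 RPM in normal pressure, 6 (0.359%) had a hypoxia mean at least 5 times lower. These were novel_circ_041272, novel_circ_000012 and 4 that were above 0 in 1 normal pressure library alone. The most abundant of those 4, novel_circ_033878, was listed at 4671 RPM (707 reads) in normal pressure replicate 2 and at 0 in the other 5 libraries. The next, novel_circ_005154, was listed at 1764 RPM in the same library and at 0 elsewhere. Both fell outside the test, which asked for a value above 0 in at least 3 libraries. From 50 RPM upward, 14 of 3226 circRNAs (0.434%) were at least 5 times lower, with all 4 of the described circRNAs among them and 6 seen in 1 normal pressure library alone. In the other direction, 0 of 1598 at 100 RPM (0.00%) and 2 of 3087 at 50 RPM (0.0648%) were at least 5 times higher in hypoxia.

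**Figure D2:**
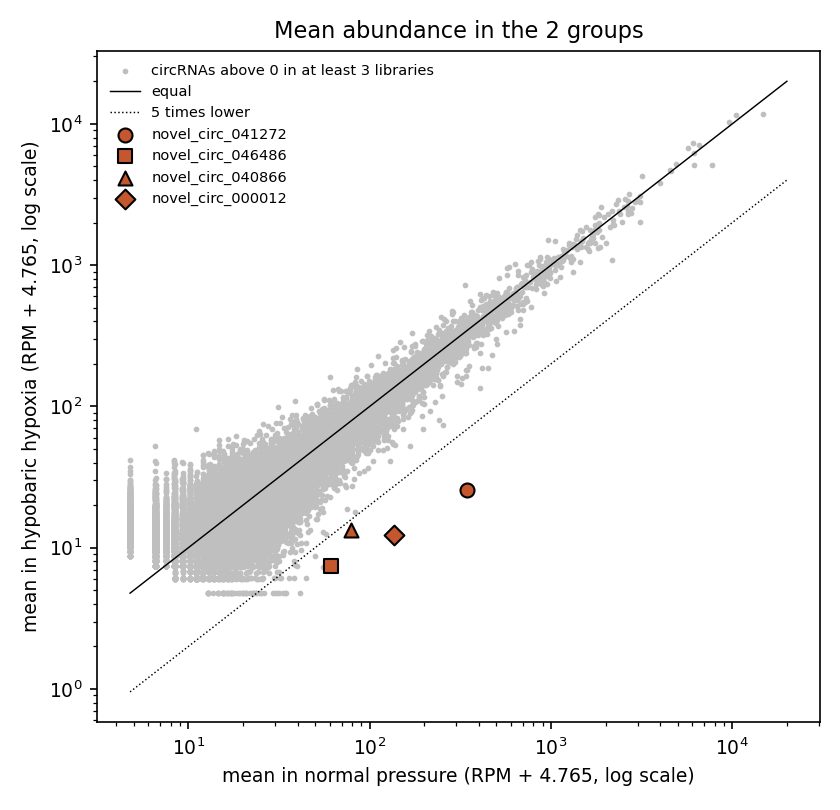
Mean RPM in hypobaric hypoxia against normal pressure, each with 4.765 added, on log axes, for circRNAs above 0 in at least 3 libraries (grey), with the 4 circRNAs marked and lines at equality and at 5 times lower. The 4 lie below the lower line, with novel_circ_041272 the farthest to the right at a normal pressure mean of 339 RPM.

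Circular RNAs with a like pattern were looked for by the Euclidean distance over the 6 libraries in log2(RPM + 4.765), a measure that includes the group difference. The nearest to novel_circ_041272 was novel_circ_043896, at a distance of 3.06, with a much smaller ratio of means of 2.95. For novel_circ_046486 it was novel_circ_028029 (distance 1.67), listed at 35.6, 13.2 and 70.5 RPM in normal pressure and 18.0, 0 and 0 RPM in hypoxia. For novel_circ_040866 it was novel_circ_029288 (distance 1.75), with a ratio of 3.20. For novel_circ_000012 it was novel_circ_041856 (distance 2.09), which was also highest in normal pressure replicate 2, at 79.3 RPM, against 16.4 and 27.1 RPM in replicates 1 and 3. Each of these had a smaller ratio of means than the circRNA it was matched to.

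**Figure D3:**
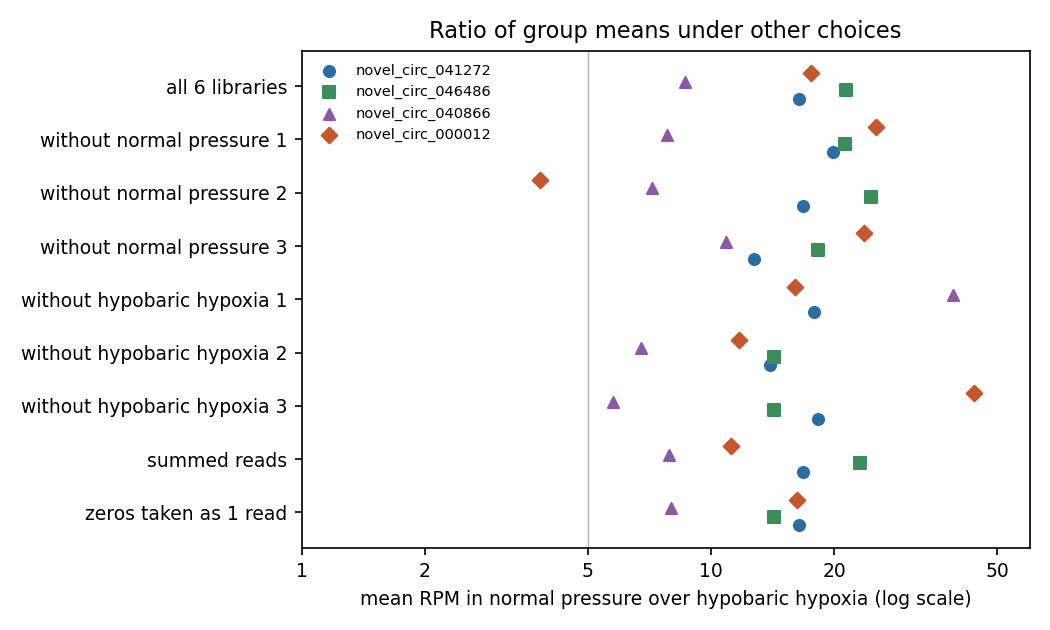
Ratio of mean RPM, normal pressure over hypobaric hypoxia, on a log axis, with all libraries, without each library in turn, from summed reads, and with zeros taken as 1 read; the vertical line marks 5. The ratio of novel_circ_041272 stays between 12.7 and 19.8, and that of novel_circ_000012 drops to 3.82 without normal pressure replicate 2; novel_circ_046486 has no point without hypoxia replicate 1, where its hypoxia values are 0.

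Entries with adjacent ID numbers were taken as context, since their own values played no part in the choice. The labels do not say how the numbers were given. Across circRNAs above 0 in all 6 libraries, the log2 fold changes of entries 1 number apart correlated weakly (Pearson r = 0.17, Spearman rho = 0.18, 1057 couples). The correlation was no lower 2 numbers apart (Pearson r = 0.21, Spearman rho = 0.19, 916 couples) and 5 apart (Pearson r = 0.20, Spearman rho = 0.20, 715 couples). It was lower 10 apart (Pearson r = 0.06, Spearman rho = 0.05, 694 couples). These are correlations across circRNAs measured in the same 6 libraries, so they are given with no test. Within 10 numbers of the 4 circRNAs lay 80 entries, of which 16 passed the filter of 3 libraries. Limma called 0 of the 16 in either direction (background 0.407%), 1 had an unadjusted p under 0.05 (background 8.60%), and limma voom on the reads called 0 (background 0.616%). That 1 entry, novel_circ_000016, passed the filter through the hypoxia libraries alone, so it had to differ. The median log2 fold change of the 16 was 0.20, against 0.18 over all circRNAs tested. With no filter it turned to -0.37 over 65 neighbours, against 0.28 over the whole table, and within 5 numbers it was -0.00596. The filter leaves out 64 of the 80 entries, among them each one seen in fewer than 3 libraries.

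Near novel_circ_041272, neighbours that were seen in normal pressure and not in hypoxia lay on both sides. The entries 1 number below, 2 above and 3 above were listed at 26.4, 52.9 and 46.3 RPM in normal pressure replicate 2 and at 10.8, 24.4 and 19.0 RPM in replicate 3. All 3 were at 0 in normal pressure replicate 1, where novel_circ_041272 was also at its lowest for that group, and at 0 in each hypoxia library. These 3 were picked after their values were seen, and other such neighbours differed. The entry 4 below was at 5.48 and 5.42 RPM in normal pressure replicates 1 and 3 and at 0 in replicate 2. Those 2 and 5 below were seen in replicate 3 only. Within 10 numbers, 6 of 20 entries were above 0 in normal pressure only and 7 in hypoxia only. Without normal pressure replicate 3 the count of 6 was 4. Within 5 numbers the counts were 6 and 0, read after the values were seen. Over the whole table, 18.2% of entries were seen in normal pressure only and 35.0% in hypoxia only. The hypoxia libraries were deeper, with smallest listed values of 3.80 to 4.11 RPM, against 5.42 to 13.21 RPM in normal pressure. Counts of entries seen in 1 group only, here and below, therefore rest on unequal limits, and the part of depth in them was not tested. At least 6 entries seen in normal pressure only lay within 10 numbers of 15.7% of all ID numbers. At least 6 within 5 numbers were found at 0.660% of all ID numbers. Windows of nearby ID numbers overlap, so the shares of ID numbers here and below are not chance rates. Summed RPM of the 20 neighbours was 87.8 ± 67.7 in normal pressure and 49.4 ± 24.1 in hypoxia (SD, n = 3), with p = 0.4 in the two-sided exact permutation test and 0.7 after adjustment over the 4 windows. The difference of -38.4 RPM (hypoxia minus normal pressure) was -76.9 without normal pressure replicate 1, -13.0 without replicate 2 and -25.4 without replicate 3.

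Around novel_circ_040866, 12 of 20 neighbours were seen in normal pressure only and 2 in hypoxia only. At least 12 such neighbours were found at 0.0349% of all ID numbers (20 of 57233), which can be a few runs of overlapping windows, this one included. The 12 were scarce, with a median of 3 reads in the library where each was highest, and 8 of them were seen in normal pressure replicate 1, 1 in replicate 2 and 4 in replicate 3. The most abundant, 3 numbers above, was listed at 41.1 and 29.8 RPM in replicates 1 and 3 and at 0 elsewhere. Without normal pressure replicate 1 the count was 5, and with at least 4 reads asked for in 1 library it was 4. Summed RPM of the 20 neighbours was 69.1 ± 26.8 in normal pressure and 24.6 ± 6.51 in hypoxia (SD, n = 3), with no overlap between the groups. The exact permutation test gave p = 0.1, two-sided, the smallest that 3 against 3 libraries allow, and 0.4 after adjustment over the 4 windows. The share of all windows whose sums do not overlap was not counted. In normal pressure replicate 2, 33.0 of the summed 46.2 RPM came from the entry 7 numbers below, which was also seen in each hypoxia library.

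For novel_circ_046486, an abundant neighbour did not follow the pattern. The entry 9 numbers below was listed at 1668, 1579 and 1959 RPM in normal pressure and at 1709, 1969 and 2067 RPM in hypoxia, a log2 fold change of 0.14 (95% interval -0.05 to 0.33, limma adjusted p = 0.759). The entry directly below novel_circ_046486 was at 13.7, 39.6 and 46.1 RPM in normal pressure and at 0, 15.2 and 12.3 RPM in hypoxia. Those groups overlapped, and the entry was not called (log2 fold change -1.56, limma adjusted p = 0.596). The entry directly above was seen in 1 library of each group, at 19.0 RPM in normal pressure replicate 3 and 10.3 RPM in hypoxia replicate 3. Of the 20 neighbours, 6 were seen in normal pressure only, a count reached at 15.7% of all ID numbers, and 1 in hypoxia only. Without normal pressure replicate 1 or 3 the count of 6 was 3. The neighbours' summed RPM, mostly that of the abundant entry, was 1917 ± 233 and 2064 ± 219 (SD, n = 3), with p = 0.6 in the two-sided exact permutation test and 0.7 after adjustment. The difference of 147 RPM (hypoxia minus normal pressure) was 47.5 without normal pressure replicate 2 and 275 without replicate 3, and it was 273, 94.8 and 73.7 without hypoxia replicates 1, 2 and 3.

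Around novel_circ_000012, 4 of 20 neighbours were seen in normal pressure only and 7 in hypoxia only, and 49.1% of all ID numbers had at least 4 of the first kind. Without normal pressure replicate 2 that count was 2. The entry 4 numbers below was highest in the same library, at 238.3, 449.3 and 224.9 RPM in normal pressure replicates 1, 2 and 3, against 229.6, 220.3 and 211.4 RPM in hypoxia. Its log2 fold change was -0.38 (95% interval -0.80 to 0.03, limma adjusted p = 0.634). The entry 4 numbers above, novel_circ_000016, was listed at 0 in each normal pressure library and at 24.0, 11.4 and 10.3 RPM in hypoxia. Summed RPM of the 20 neighbours was 431 ± 197 in normal pressure and 331 ± 17.1 in hypoxia (SD, n = 3), with p = 0.7 in the two-sided exact permutation test and 0.7 after adjustment. Without normal pressure replicate 2 the hypoxia mean was the higher one, by 11.3 RPM.

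**Figure D4:**
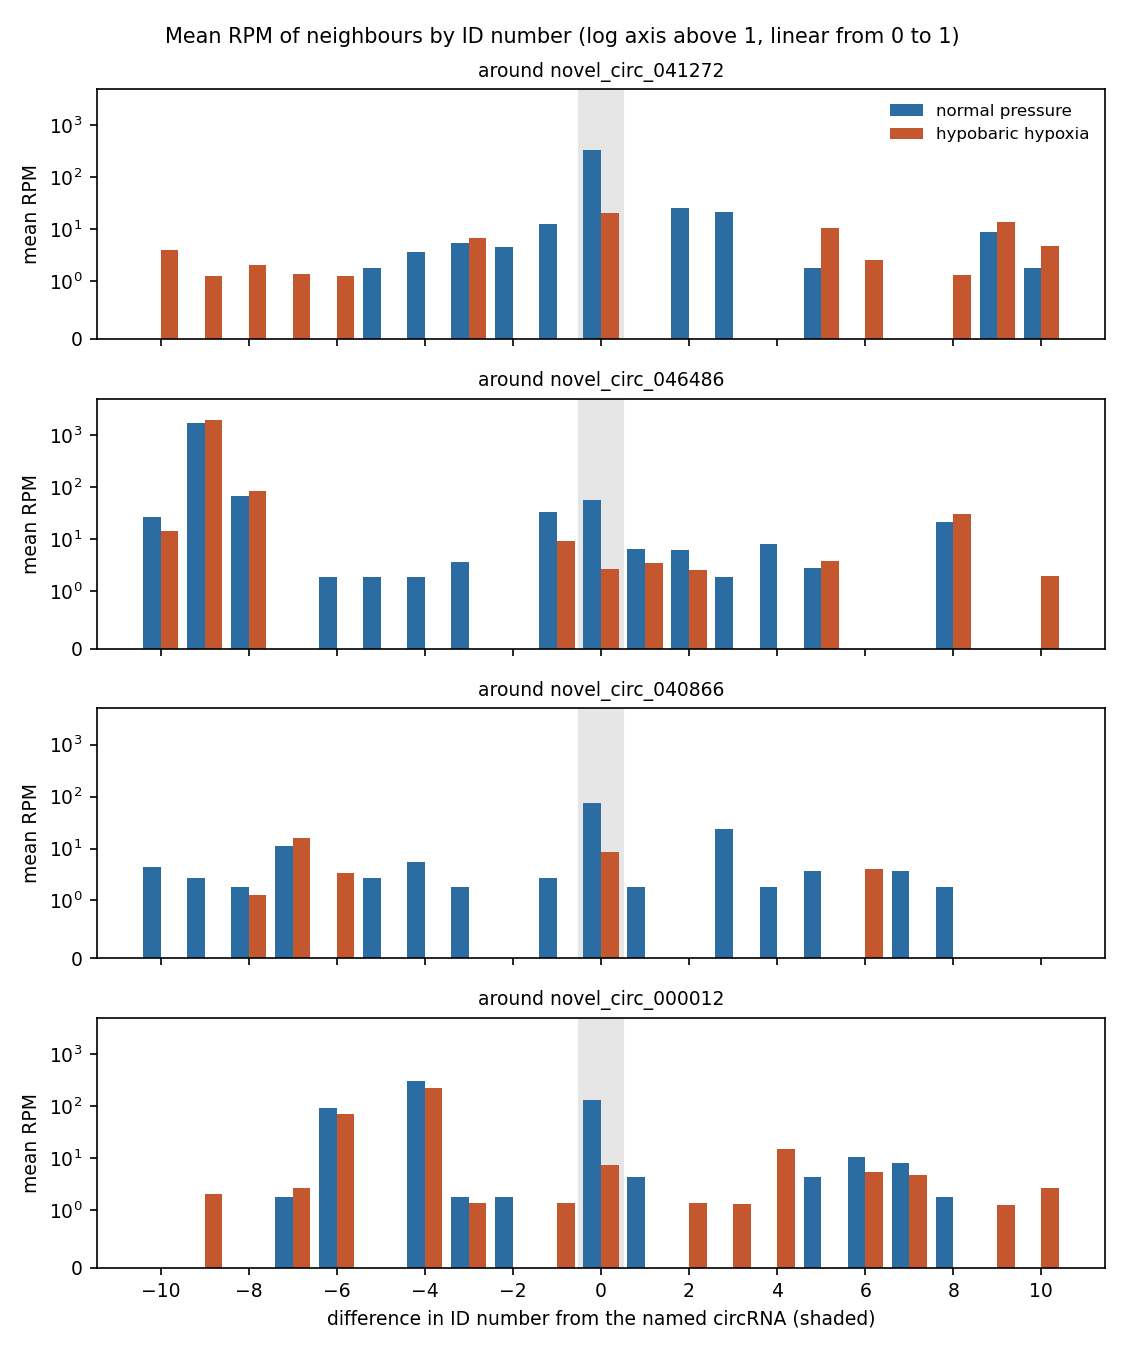
Mean RPM of entries within 10 ID numbers of each circRNA (shaded) in normal pressure and hypobaric hypoxia, on an axis that is logarithmic above 1 RPM and linear below; the bars are means of 3 libraries, without error. Entries around novel_circ_040866 are mostly seen in normal pressure only (12 of 20), and the tallest bars in the panel of novel_circ_046486, 9 numbers below it, differ little between the groups.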

How the data were processed

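The authors deposited 1 table of RPM values for 57233 circRNAs in 6 libraries, scaled by them to the same total in every library. Per the labels' protocols, RNA was depleted of rRNA, digested with RNase R and made into strand-specific libraries for a DNBSEQ-G400 instrument. Per the submitters' processing notes, BWA, Bowtie2 and the build GRCm38 were used, with no roles named. No source used here gives the circRNA caller.

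The 4 circRNAs, the neighbour windows and the tests were chosen with earlier results of these data known. The RPM of 1 read was found per library, and all values above 0 lay within 0.05 of a whole number of reads (100%). CircRNAs above 0 in at least 3 libraries were fitted on log2(RPM + 4.765), the constant being the middle of the 6 libraries' smallest values above 0, with limma 3.58.1 (R 4.3.3, intensity trend, robust variances, group only, Benjamini-Hochberg over 15737 circRNAs). The fit was tested on simulated data with 1 common dispersion and no circRNA high in 1 library alone. That test therefore cannot show how the fit behaves for circRNAs with a larger spread. Window sums used exact permutation tests (scipy 1.17.1). Circular RNAs named besides the 4 are the nearest in pattern, the 2 with the lowest ratio of means at 100 RPM or more (ties by abundance) and, chosen after their values were seen, novel_circ_000016 and novel_circ_022647. Same-numbered libraries of the 2 groups did not deviate together (correlations -0.003, -0.005 and 0.011), so the number was not taken as a pairing.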

Additional observations from a re-analysis of the deposited data

How the results depend on the processing

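The 64 calls (26 higher, 38 lower) became 27 with 1.19 RPM as the added constant, 42 among circRNAs above 0 in all 6 libraries, 0 in limma with neither trend nor robust variances (where 1408 had an unadjusted p under 0.05), 97 with limma voom and 4 to 58 with 1 library left out. A replicate block gave 65 calls, 54 of which were shared with the 64. Median centring gave 37 higher and 22 lower, and moved the median log2 fold change over the whole table from 0.18 to 0.26. Quantile normalization moved it to 0.02. The difference of each of the 4 circRNAs was negative in every alternative that could be fitted. Their groups do not overlap, so leaving out a library or changing the constant could not turn that sign, and only the size of the difference is informative. With 19.1 RPM as the constant it was -3.10 for novel_circ_041272, -1.80 for novel_circ_046486 and -1.75 for novel_circ_040866. For novel_circ_046486 it was -4.58 with the small constant and -4.92 with voom. Leaving out 1 library gave -4.03 to -3.39 for novel_circ_041272, -3.65 to -2.94 for novel_circ_046486, -3.51 to -2.26 for novel_circ_040866 and -3.60 to -1.59 for novel_circ_000012. The ratio of means for novel_circ_040866 ranged from 5.74 to 38.9. For the neighbours, the median log2 fold change of 0.20 became -0.37 without the filter, -0.00596 within 5 numbers and 0.0666 to 0.42 with 1 library left out. The window sum around novel_circ_000012 differed by -176 to 11.3 RPM (hypoxia minus normal pressure). The count at least 5 times lower was 6, and 14 from 50 RPM. What caused these shifts was not tested. The voom fit, the zeros taken as 1 read and the counts of entries seen in 1 group only were added after seeing the data. The planned edgeR and DESeq2 fits on reads were not run. The hypoxia values of the 3 scarcer circRNAs rest on 4 to 13 reads each, summed over 3 libraries, and have wide counting intervals.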

Other observations

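Of the 5 uncalled circRNAs with log2 fold changes between -3.00 and -2.77, 2 had ID numbers 2 and 3 below that of novel_circ_022647, the next called circRNA. The nearer of them was listed at 32.9, 19.8 and 32.5 RPM in normal pressure and the other at 16.4, 39.6 and 32.5 RPM, and both were at 0 in each hypoxia library. None of these values comes from a test, and the 3 were picked after their values were seen.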
